A study of Mus musculus with 6 samples.

Results

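The 10 genes described here are Ptch1, Gli1, Gli2, Gli3, Hhip, Smo, Foxf1, Foxf2, Boc and Gas1, chosen as genes through which gut mesenchyme answers Hedgehog signals from the epithelium, out of 12393 genes measured. They have 18 probe sets among the 20380 that name 1 gene, and each gene was read from the probe set that was brightest on average across the 6 arrays. RNA came from C57BL/6 mouse gut taken at embryonic day 13.5, digested with collagenase-dispase and trypsin to reduce the endoderm, and grown for 3 days with 20% fetal bovine serum. Intestine cells of embryos with both Bapx1+/Cre and Rosa26+/Barx1 (called Barx1 intestine), stomach cells of embryos with either allele alone, and intestine cells of embryos with either allele alone were hybridised to 2 Affymetrix arrays each, as biological replicates. The labels call both single-allele groups wild type, and do not say which of the alleles a given array carries. The Cre is driven from the Bapx1 (Nkx3-2) locus, so Barx1 is switched on from Rosa26 in cells with a history of Bapx1 expression, and each array measured a mixed culture in which fewer cells of a type and less RNA per cell cannot be told apart.

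In the developing gut, Sonic and Indian hedgehog are secreted by the endoderm and received by the mesenchyme around it. Ligand binding to PTCH1 frees SMO to signal through the primary cilium to the GLI transcription factors, and Ptch1, Gli1 and Hhip are themselves transcribed in response, so their RNA is commonly read as the output of the pathway. FOXF1 and FOXF2 are forkhead factors of gut mesenchyme downstream of the signal, and BARX1 is a homeodomain factor of the stomach mesenchyme.

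Foxf2 and Gas1 varied most of the 10 genes. Foxf2 was highest in intestine, lower in Barx1 intestine and lowest in stomach. Gas1 was higher in stomach than in Barx1 intestine and in intestine, and its level in Barx1 intestine lay near that of intestine. Gli2 was higher in stomach than in intestine. No other member passed this test in any comparison, though Smo had an adjusted p under 0.05 in stomach against intestine under 2 of 10 other settings. At the looser threshold of 0.10 Smo and Foxf1 passed in that comparison, where 3310 of 12393 genes passed. Foxf1 also passed at 0.10 in Barx1 intestine against stomach, where 1516 genes passed. The response genes Gli1 and Hhip read at a level that was not shown to be above background on any array.

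A gene was called at an adjusted p under 0.05 by limma with Benjamini-Hochberg adjustment over all genes. In Barx1 intestine against intestine 0 members were higher and 1 was lower (Foxf2), where 3.98% of all genes were called, 1.86% higher and 2.12% lower. At an unadjusted p under 0.05 by limma the members gave 1 higher and 1 lower. The share of all genes at that unadjusted p was not counted, so this count shows nothing particular to the members. In stomach against intestine 2 were higher (Gas1, Gli2) and 1 was lower (Foxf2), where 16.9% of all genes were called, 8.86% higher and 8.09% lower. In Barx1 intestine against stomach 1 was higher (Foxf2) and 1 was lower (Gas1), where 5.20% of all genes were called, 2.56% higher and 2.64% lower. Separation without overlap was seen in 4, 8 and 8 of the 10 members in these comparisons, and in 52.4%, 64.1% and 58.0% of all genes. The median log2 difference over the members was -0.06, 0.05 and -0.11 in these comparisons, and over all genes it was 0.021, 0.019 and -0.001. The comparisons share arrays in pairs, so they are not independent of each other. The call of Foxf2 between Barx1 intestine and intestine did not survive leaving out any single array (adjusted p from 0.063 to 0.149, difference from -0.77 to -0.61).

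**Figure D1:**
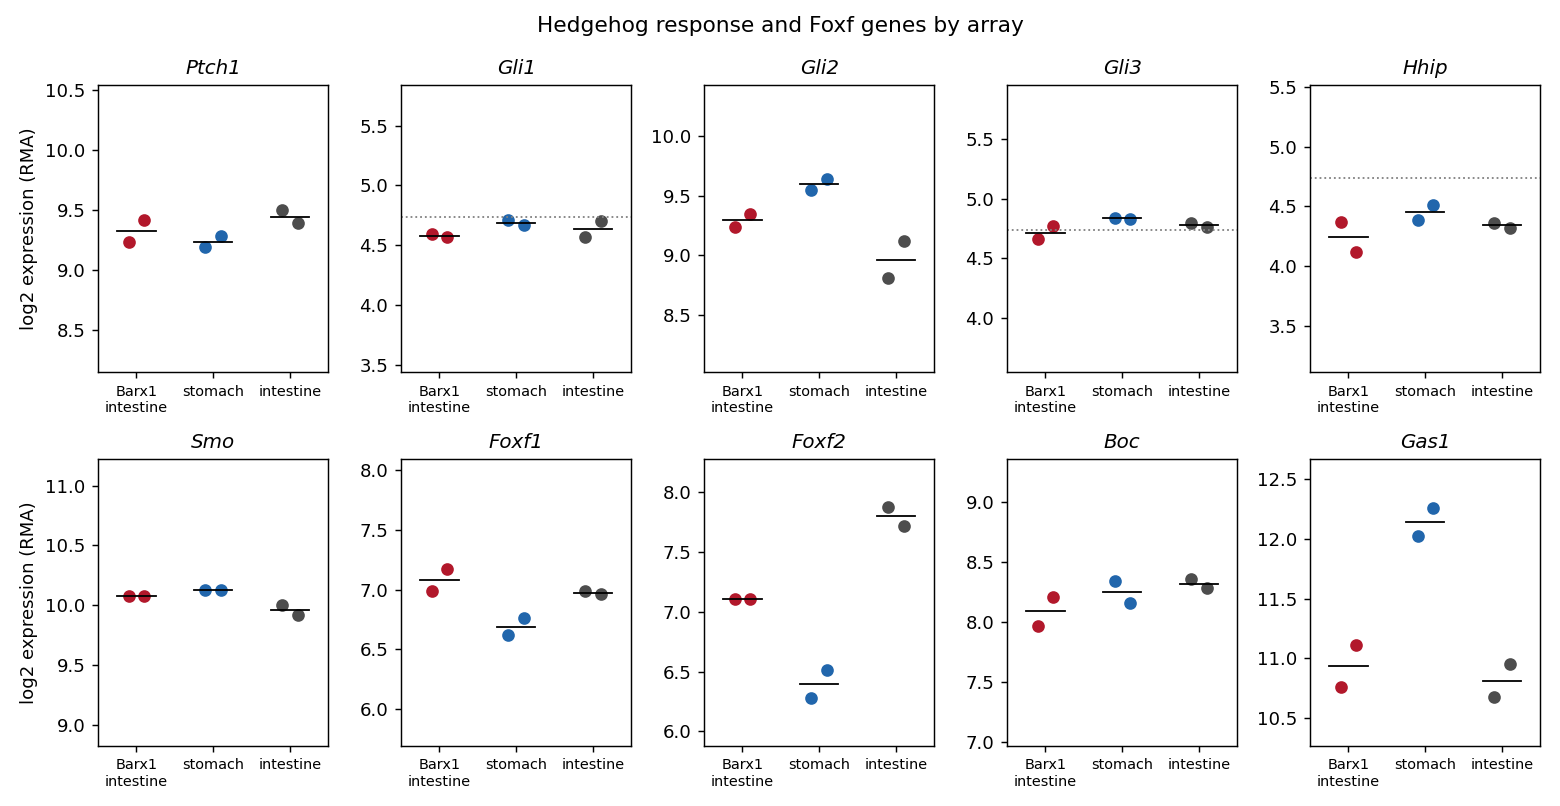
Log2 expression of the 10 genes on each array (points, 2 per group) with the group mean (bar); every panel has the same span and the dotted line is the mean lower quartile of the arrays. Foxf2 and Gas1 span 1.60 and 1.58 log2 units, while Ptch1 spans 0.31 and Gli1 and Hhip lie under the dotted line.

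On the log2 scale the lower quartile of an array was 4.72 to 4.76 and its median 6.93 to 6.98. A level at or below the lower quartile is read here as not shown to be above background. The small number of arrays, 2 a group, limits precision. Barx1, the gene switched on by the alleles, read 8.72 ± 0.10 in Barx1 intestine, 9.81 ± 0.02 in stomach and 5.03 ± 0.15 in intestine (SD, n = 2 each). It was higher in Barx1 intestine than in intestine by 3.69 (adjusted p = 0.000207), and lower in Barx1 intestine than in stomach (difference -1.08, adjusted p = 0.012). The median over members of the absolute difference between replicates was 0.150 in Barx1 intestine, 0.107 in stomach and 0.096 in intestine.

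The receptor end of the pathway comprises Ptch1, Smo, Boc and Gas1. Ptch1, which encodes the receptor that holds SMO inactive until ligand binds, read 9.23 and 9.42 in Barx1 intestine, 9.19 and 9.28 in stomach, and 9.50 and 9.39 in intestine. The Barx1 intestine arrays overlapped those of stomach and of intestine, and the stomach arrays lay below those of intestine. Its log2 difference was -0.13 (95% interval -0.35 to 0.10, adjusted p = 0.455) for Barx1 intestine minus intestine, -0.21 (-0.43 to 0.01, adjusted p = 0.163) for stomach minus intestine and 0.09 (-0.14 to 0.31, adjusted p = 0.605) for Barx1 intestine minus stomach. None of these passed the limma test, and the intervals leave room for a difference of up to 0.43 in size.

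Smo encodes the membrane protein that passes the signal into the cell. It read 10.08 on both Barx1 intestine arrays, 10.13 on both stomach arrays, and 10.00 and 9.92 in intestine. The intestine arrays were the lowest, and the differences were small: 0.12 for Barx1 intestine minus intestine (SE 0.06, adjusted p = 0.274), 0.17 for stomach minus intestine (SE 0.06, adjusted p = 0.0993) and -0.05 for Barx1 intestine minus stomach (SE 0.06, adjusted p = 0.639). The difference between stomach and intestine passed with dim genes left out (adjusted p = 0.0411), where 2405 of 6880 genes passed. It also passed with a variance trend (adjusted p = 0.0489), where 2664 of 12393 genes passed. Over the 10 settings that kept all arrays its adjusted p ran from 0.0411 to 0.307. A dimmer Smo probe set gave 0.21, 0.03 and 0.18 for the same differences, so the sign of the last depended on the probe set.

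Boc encodes a co-receptor of the immunoglobulin superfamily that binds the ligand beside PTCH1. It read 7.97 and 8.21 in Barx1 intestine, 8.34 and 8.16 in stomach, and 8.36 and 8.28 in intestine. Barx1 intestine lay below intestine without overlap and overlapped stomach. The difference between Barx1 intestine and intestine was -0.23 (SE 0.11, adjusted p = 0.268). A second probe set gave -0.47 (SE 0.11, adjusted p = 0.0849) and the dimmest, which was not above the lower quartile on any array, gave -0.09. Stomach and intestine differed by -0.07 (95% interval -0.33 to 0.20).

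Gas1 encodes a membrane-anchored protein that presents Hedgehog ligand to PTCH1 and was first described as a gene of growth arrest. It read 10.76 and 11.11 in Barx1 intestine, 12.02 and 12.26 in stomach, and 10.68 and 10.95 in intestine. Both stomach arrays stood above every other array, and the arrays of Barx1 intestine and intestine overlapped. Gas1 rose in stomach over intestine by 1.33 on the log2 scale (SE 0.16, adjusted p = 0.00754), which is 2.51-fold. Barx1 intestine fell short of stomach by 1.21 log2 units (difference -1.21, SE 0.16, adjusted p = 0.0230). Barx1 intestine minus intestine was 0.12 (95% interval -0.27 to 0.52, adjusted p = 0.700), an interval that does not reach the 1.33 seen in stomach.

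The other probe sets of Gas1 gave stomach minus intestine differences of 1.46 (SE 0.19, adjusted p = 0.00934) and 0.40 (SE 0.08, adjusted p = 0.0303), in a fit of every probe set in which 14.9% passed. For Barx1 intestine minus stomach they gave -1.34 (adjusted p = 0.0272) and -0.32 (adjusted p = 0.0895), where 4.33% passed. For Barx1 intestine minus intestine they gave 0.13 and 0.08 without a call, where 3.37% passed. All probe sets of Gas1 thus placed stomach highest. Without stomach replicate 2 the stomach and intestine call was lost (adjusted p = 0.0603, difference 1.21), and over all fits that left out 1 array the difference ran from 1.20 to 1.46. The call between Barx1 intestine and stomach was kept in 2 of the 6 such fits, with a difference from -1.38 to -1.03 and an adjusted p from 0.029 to 0.158. It was lost without either Barx1 intestine array and without either stomach array, and was kept only where no compared array was left out.

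Other genes of gut mesenchyme moved beside Gas1. Of 13 mesenchyme markers, none of them a member, stomach against intestine gave 7 higher and 1 lower, where 16.9% of all genes were called. The log2 of the summed level of the markers was 16.60 and 16.64 in stomach against 16.26 and 16.28 in intestine. In Barx1 intestine that sum was 16.16 and 16.22. Against stomach 0 of the 13 were called higher and 6 lower there, where 5.20% of all genes were called. For stomach minus intestine Col1a2 rose most of the 13, by 1.98. Vim, Acta2 and Tagln, the brightest of them, differed by 0.10, 0.05 and -0.03 without a call, so the sum does not stand for every marker. Whether the mesenchymal share of the cultures contributed to the Gas1 difference was not tested.

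**Figure D2:**
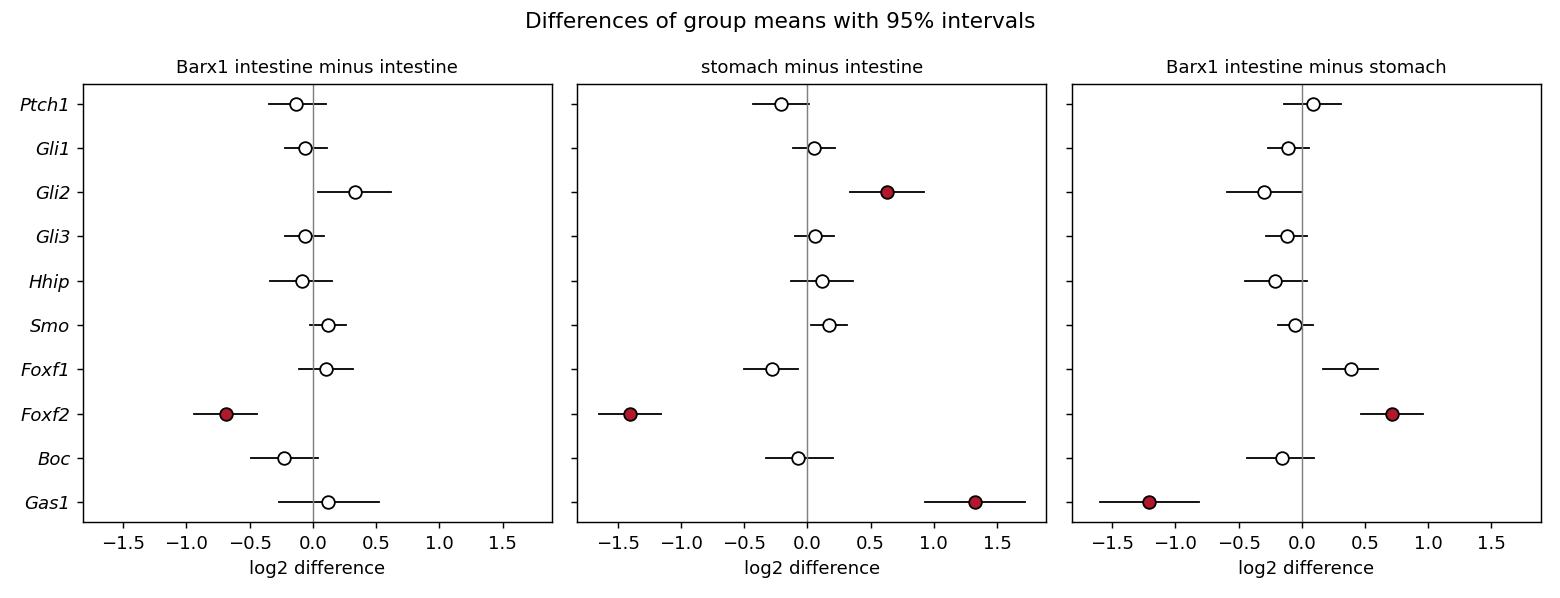
Log2 difference of group means for each gene (point) with its 95% interval from the limma fit (line), in the 3 comparisons; filled points passed at an adjusted p under 0.05. Foxf2 is filled in every panel and Gas1 in the panels that involve stomach, while Ptch1, Smo and Boc lie within 0.23 of 0.

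The nuclear end of the pathway comprises the 3 GLI zinc-finger factors. Gli2, the main activator on which the first response depends, read 9.24 and 9.35 in Barx1 intestine, 9.55 and 9.64 in stomach, and 8.81 and 9.12 in intestine. The groups did not overlap, with stomach highest and intestine lowest. Gli2 rose in stomach over intestine by 0.63 (SE 0.12, adjusted p = 0.0219), which is 1.55-fold, and a second probe set gave 0.52 (SE 0.12, adjusted p = 0.0444). Barx1 intestine differed from intestine by 0.33 (SE 0.12, adjusted p = 0.166) and from stomach by -0.30 (SE 0.12, adjusted p = 0.197), and neither passed. Gli2 kept its stomach call in 4 of 6 fits that left out 1 array, and lost it without either stomach array. Of those 4, the 2 without a Barx1 intestine array are 1 fit that leaves out no compared array. In those 6 fits the difference ran from 0.47 to 0.78.

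Gli1, an activator that is itself switched on by the pathway, read 4.59 and 4.57 in Barx1 intestine, 4.71 and 4.67 in stomach, and 4.57 and 4.70 in intestine. All 6 values lay at or below the lower quartile of their array. Gli3, whose product acts mainly as the repressor when no ligand is present, read 4.66 and 4.77 in Barx1 intestine, 4.84 and 4.83 in stomach, and 4.80 and 4.76 in intestine, with 1 of 6 values at or below the lower quartile and the rest under 0.1 above it. Neither gene differed by more than 0.12 in any comparison, and none of these differences passed (adjusted p from 0.307 to 0.666). At levels this near background a difference in either gene may not be detectable on these arrays. Each was read from a single probe set.

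Hhip encodes a membrane protein that binds Hedgehog ligands and withholds them from PTCH1. It read 4.37 and 4.12 in Barx1 intestine, 4.39 and 4.51 in stomach, and 4.36 and 4.32 in intestine. Both of its probe sets were at or below the lower quartile on all 6 arrays. Its differences were -0.09, 0.12 and -0.21 for Barx1 intestine minus intestine, stomach minus intestine and Barx1 intestine minus stomach, without a call (adjusted p from 0.269 to 0.629). Of the response genes Ptch1, Gli1 and Hhip, Ptch1 alone read above the lower quartile. Its dimmer probe set read 5.30 to 5.45 and gave differences within 0.05 of 0.

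**Figure D3:**
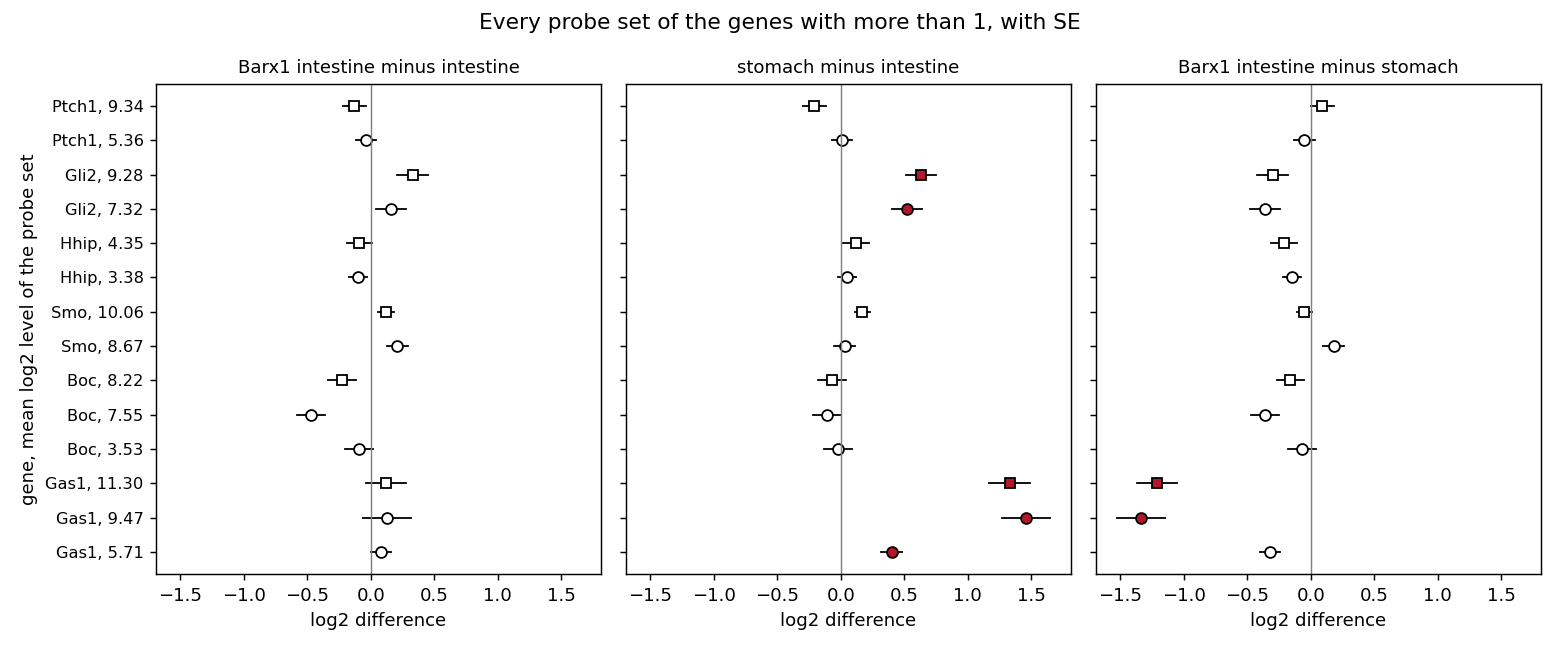
Log2 difference with its SE for every probe set of the genes with more than 1, labelled by gene and mean log2 level; squares are the probe sets used as the main reading and filled symbols passed in the fit of every probe set. The 3 probe sets of Gas1 and the 2 of Gli2 are filled in stomach minus intestine, and the Smo probe sets fall on opposite sides of 0 in Barx1 intestine minus stomach.

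The Foxf genes differed in how they followed the groups. Foxf2 encodes a forkhead factor of gut mesenchyme and read 7.11 on both Barx1 intestine arrays, 6.28 and 6.51 in stomach, and 7.88 and 7.72 in intestine. The 3 groups did not overlap, and Barx1 intestine lay between the others. Foxf2 fell in stomach relative to intestine (log2 difference -1.40, SE 0.10, adjusted p = 0.00261), which is 2.65-fold, and it kept this call in all 6 fits that left out 1 array. It fell in Barx1 intestine relative to intestine (difference -0.69, SE 0.10, 95% interval -0.94 to -0.44, adjusted p = 0.0308), which is 1.61-fold. It was higher in Barx1 intestine than in stomach by 0.71 (SE 0.10, adjusted p = 0.0256). That call was kept in 2 of those 6 fits, those without an intestine array, which leave out no compared array. Without either Barx1 intestine array and without either stomach array it was lost.

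With the replicate number as a block Foxf2 missed the threshold in both comparisons of Barx1 intestine, with intestine (adjusted p = 0.0615) and with stomach (adjusted p = 0.0557). Over the 9 settings that kept all arrays the adjusted p ran from 0.0165 to 0.063 for the comparison with intestine, and over 10 such settings from 0.0116 to 0.0557 for that with stomach. The sign was the same in every fit. The Foxf2 reading rests on 1 probe set. The near-identical values of the Barx1 intestine arrays (SD 0.0016) have the smallest spread of the 10 members in that group. The fit takes 1 spread per gene over all 3 groups, and limma moderates that pooled spread towards the spread of all genes.

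Foxf1, the paralogue of Foxf2 that the gut mesenchyme needs for its growth, read 6.99 and 7.17 in Barx1 intestine, 6.62 and 6.76 in stomach, and 6.99 and 6.96 in intestine. The stomach arrays were the lowest without overlap, and Barx1 intestine and intestine overlapped. Foxf1 differed by -0.28 for stomach minus intestine (SE 0.09, adjusted p = 0.0812), by 0.39 for Barx1 intestine minus stomach (SE 0.09, adjusted p = 0.0667) and by 0.10 for Barx1 intestine minus intestine (95% interval -0.11 to 0.32, adjusted p = 0.527). None passed. The interval of the last lies wholly outside that of Foxf2 in the same comparison, though the difference between the paralogues was not itself tested.

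The promoters of Foxf2 and Gas1 are shown because these members differed most between the groups. RefSeq start sites on GRCm38.p6 gave windows of 300 bases, from 250 before to 50 after the start, for 7 of the 10 members; none was matched for Gli1, Foxf1 and Boc. The windows are written 5′ to 3′ on the strand of the gene, with the core of the GLI site in capitals (CCACCC, or GGGTGG on the other strand, where overlapping matches count apart). Foxf2 lies at chr13:31625566-31625865, plus strand, and Gas1 at chr13:60177486-60177785, minus strand.
Foxf2: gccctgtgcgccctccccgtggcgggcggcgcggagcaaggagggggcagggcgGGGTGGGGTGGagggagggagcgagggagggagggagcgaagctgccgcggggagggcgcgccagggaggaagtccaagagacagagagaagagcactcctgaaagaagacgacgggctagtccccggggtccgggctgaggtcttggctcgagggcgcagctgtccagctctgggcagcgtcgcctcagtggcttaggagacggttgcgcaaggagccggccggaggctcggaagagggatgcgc
Gas1: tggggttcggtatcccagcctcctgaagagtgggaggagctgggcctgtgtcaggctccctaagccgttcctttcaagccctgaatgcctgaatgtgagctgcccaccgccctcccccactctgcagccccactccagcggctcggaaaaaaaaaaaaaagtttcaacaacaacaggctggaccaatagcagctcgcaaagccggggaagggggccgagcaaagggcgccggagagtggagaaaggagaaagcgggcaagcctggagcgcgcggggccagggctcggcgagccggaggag
The Foxf2 window held 2 core matches, beginning 196 and 191 bases before the start site and sharing a base, and the Gas1 window held 0. The core was found in 5 of the 7 member windows (Gli2, Gli3, Hhip, Smo and Foxf2) and in 31.5% of all 32851 windows. The longer GLI consensus GACCACCCA, searched on both strands, was in 0 of the 7 and in 0.253% of all windows. The base composition was rich in G and C, at 71.3% in Foxf2 and 62.3% in Gas1 against a median of 52.7% over all windows. Over the 7 member windows it ran from 62.3% to 76.3%. The share of all windows with the core was not matched for base composition, so the count of 5 shows nothing particular to the members. These matches describe the letters of short windows, and no binding was measured.

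Among genes that make and release the ligand, Shh and Ihh were at or below the lower quartile on all 6 arrays and gave no call (adjusted p from 0.296 to 0.914); these were picked out after their values were seen. Dhh, another mammalian ligand, best known from Schwann and Sertoli cells, read 7.19 and 6.93 in Barx1 intestine, 6.53 and 6.35 in stomach, and 6.46 and 6.56 in intestine. Barx1 intestine was highest without overlap. Dhh was higher there than in stomach by 0.62 (SE 0.11, adjusted p = 0.0441), and the difference from intestine was 0.55 (SE 0.11, adjusted p = 0.0608). Of the 6 measured genes of this list, Dhh was the 1 called in any comparison.

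The list of other co-receptors, outside the members, had 3 measured genes. Of these Gpc3, a glypican that in mouse restrains Hedgehog signalling rather than aiding it, rose in stomach over intestine by 0.46 (SE 0.07, adjusted p = 0.0143). It read 10.56 and 10.46 in stomach against 10.01 and 10.09 in intestine. Lrp2, an endocytic receptor that can bind SHH, read 4.64 and 4.67 in stomach, not above the lower quartile, against 5.51 and 5.20 in intestine (difference -0.70, SE 0.11, adjusted p = 0.0155). Neither passed in a comparison of Barx1 intestine, where Gpc3 read 10.29 and 10.39 and Lrp2 4.81 and 4.94.

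The machinery between SMO and the GLI proteins gave no call. Of 10 measured genes that process or restrain GLI proteins 0 passed by limma in any comparison (1, 2 and 1 at an unadjusted p under 0.05), with medians of 0.04, 0.09 and -0.04 for Barx1 intestine minus intestine, stomach minus intestine and Barx1 intestine minus stomach. Csnk1a1, a kinase that phosphorylates GLI proteins, differed by 0.06, 0.19 and -0.13, and Spop, which targets them for degradation, by 0.08, 0.11 and -0.04. Of 12 genes of the primary cilium 0 passed as well (6, 4 and 1, all higher, at an unadjusted p under 0.05), with medians of 0.16, 0.05 and 0.04. The share of all genes at an unadjusted p under 0.05 was not counted, so the unadjusted counts of these lists show nothing particular to them. Tulp3, a ciliary trafficking protein, differed by 0.05, 0.04 and 0.01, and Ift57, of intraflagellar transport, by 0.16, 0.07 and 0.09.

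Genes reported downstream of Hedgehog in gut mesenchyme or elsewhere moved in both directions. In Barx1 intestine against intestine, where 3.98% of all genes were called, 1 of 16 rose and 3 fell. Nkx2-3, a homeobox gene of intestinal and splenic mesenchyme, read 8.61 and 8.14 in Barx1 intestine against 10.30 and 10.09 in intestine (difference -1.83, SE 0.17, adjusted p = 0.0132). Bmp4, a Hedgehog-induced ligand of the gut wall, read 10.28 and 10.43 in Barx1 intestine against 11.29 and 11.46 in intestine, and Mycn, a proliferation gene, 7.42 and 7.53 against 8.30 and 8.43, with differences of -1.03 and -0.89. Ccnd1, a G1 cyclin, rose by 0.57 (SE 0.07, adjusted p = 0.0230). The list median was -0.03.

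In stomach against intestine, where 16.9% of all genes were called, 4 of 16 rose and 2 fell, with a list median of 0.01. Those that rose were Osr1 (1.14), a zinc-finger gene of foregut mesenchyme, the forkhead genes Foxc2 (1.04) and Foxc1 (0.94), and Myocd (0.90), the coactivator of smooth muscle genes. Those that fell were Nkx2-3 (-2.31) and Bcl2 (-0.31), a survival gene. In Barx1 intestine against stomach, where 5.20% of all genes were called, 0 rose and 5 fell, with a list median of 0.06. Those that fell were Foxc1 (-0.93), Myocd (-0.89), Osr1 (-0.80), Bmp4 (-0.78) and Mycn (-0.72). Foxc1 read near the lower quartile in Barx1 intestine (4.83 and 5.05) and in intestine (5.18 and 4.68). Nkx2-3 is also 1 of the 13 mesenchyme markers.

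**Figure D4:**
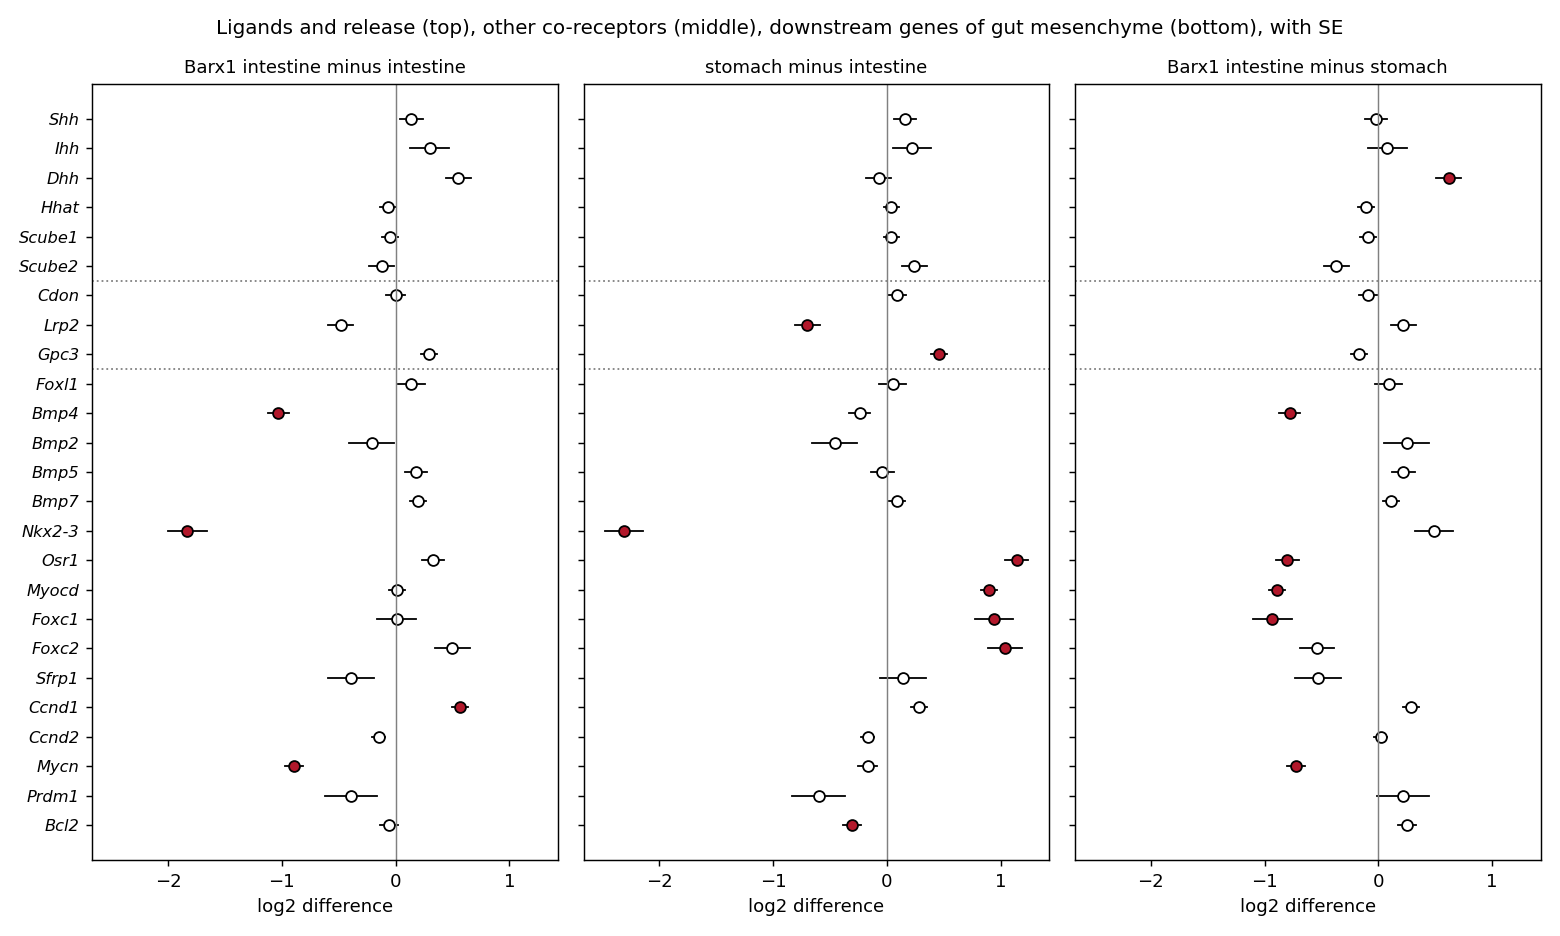
Log2 difference with its SE for ligand and release genes, other co-receptors and downstream genes, in the 3 comparisons; filled points passed at an adjusted p under 0.05 over all genes. Nkx2-3 is lowest in both panels against intestine, and Dhh is the 1 filled point among the ligand genes.

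Other cell types in the cultures differed between the groups as well. Over all genes 3.98% were called in Barx1 intestine against intestine, 16.9% in stomach against intestine and 5.20% in Barx1 intestine against stomach. The log2 of the summed level of 24 epithelial markers was 12.99 to 13.64 in Barx1 intestine, 12.39 to 13.12 in stomach and 13.58 to 14.71 in intestine. Of these, 1 was called lower in Barx1 intestine and 3 in stomach, each against intestine, with list medians of -0.69 and -1.03, and 0 were called in Barx1 intestine against stomach (median 0.22). The markers with the highest mean level were Krt18, Krt8 and Krt7, and Foxa3, Cdx1, Gata4 and Ehf were at or below the lower quartile on all arrays. The 17 leukocyte markers, led by Csf1r, Tyrobp and C1qa, summed to 11.26 to 12.16 in Barx1 intestine, 12.41 to 12.67 in stomach and 13.12 to 14.11 in intestine, with 7 lower in Barx1 intestine and 1 in stomach, each against intestine (medians -1.83 and -1.01), and 0 called in Barx1 intestine against stomach (median -0.85).

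The 10 enteric neural crest markers, led by Ncam1, Erbb3 and Elavl4, summed to 11.14 to 11.17 in Barx1 intestine, 11.77 to 11.79 in stomach and 11.48 to 11.80 in intestine. Ncam1, a cell adhesion gene and the brightest of the list, weighed most on this sum. It was higher in stomach than in intestine by 0.87 (adjusted p = 0.00536). In intestine Ncam1 read 10.24 and 10.49, and Erbb3 (8.79 and 9.22) and Ednrb (8.37 and 9.15) added to the sum. The other markers of the list went both ways. For stomach minus intestine Tubb3 and Elavl4 differed by 0.69 and 0.36, and Ret and Gfra1 by 0.06 and 0.11, all without a call. Foxd3 and S100b differed by -0.67 and -0.29, also without a call. Erbb3, a receptor of glial and Schwann cell precursors, differed by -1.74 for stomach minus intestine and by -2.60 for Barx1 intestine minus intestine, both called. Sox10 (-1.09 and -1.58) and Ednrb (-2.40 and -3.17), picked out after their values were seen, were called lower in both comparisons as well. Against intestine 0 were called higher and 4 lower in Barx1 intestine (median -0.79), and 1 higher and 3 lower in stomach (median -0.11). In Barx1 intestine against stomach 3 were called lower (median -0.44). The 12 endothelial markers, led by Flt1, Cd34 and Kdr, summed to 10.35 to 10.50 in Barx1 intestine, 9.96 to 9.97 in stomach and 10.38 to 10.40 in intestine, with Pecam1, Cdh5, Tek and Tie1 at or below the lower quartile on all arrays. Their calls were 2 lower in Barx1 intestine and 1 higher and 4 lower in stomach, each against intestine, and 3 higher in Barx1 intestine against stomach, with medians of -0.02, -0.08 and -0.05. The mesenchyme markers Vim, Acta2 and Tagln read above 14 on every array, and over the 13 mesenchyme markers 2 were higher and 1 lower in Barx1 intestine against intestine (median 0.00).

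Foxf2, the member called in all comparisons, was highest in intestine. So was the leukocyte sum, with stomach next and Barx1 intestine lowest. The epithelial markers had the group order of Foxf2 by list median. These medians were -0.69 for Barx1 intestine minus intestine, -1.03 for stomach minus intestine and 0.22 for Barx1 intestine minus stomach. The epithelial sums of Barx1 intestine (13.64 and 12.99) overlapped those of intestine (14.71 and 13.58) and of stomach (12.39 and 13.12). Within intestine, replicate 1 had the higher epithelial sum (14.71 against 13.58) and replicate 2 the higher leukocyte sum (14.11 against 13.12), while Foxf2 read 7.88 and 7.72. Without intestine replicate 1 the Foxf2 difference of Barx1 intestine from intestine was -0.61 (adjusted p = 0.0697), and without intestine replicate 2 it was -0.77 (adjusted p = 0.065). Between Barx1 intestine and stomach the leukocyte sum was lower in Barx1 intestine and Foxf2 was higher. The part of these cell types in the Foxf2 difference was not tested.

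**Figure D5:**
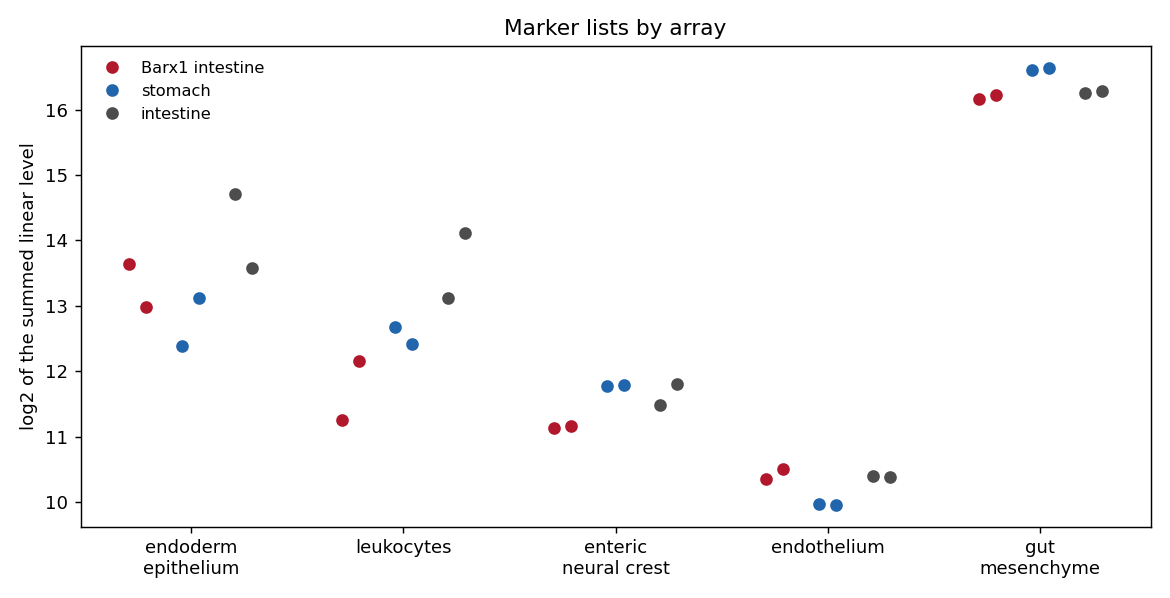
Log2 of the summed linear level of each marker list on every array (points, 2 per group). The leukocyte sum lies at 13.12 and 14.11 in intestine, above all other arrays, and the mesenchyme sum is highest in stomach at 16.60 and 16.64.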

How the data were processed

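The deposited values are log2 expression values of 22690 probe sets on 6 arrays, which the authors summarised with RMA, per the submitters' processing notes; no source used here gives its version. RMA as usually run brings the arrays to a common distribution, which would remove a shift shared by most genes. The log2 scale was read from the values (2.48 to 14.7). Names came from the platform annotation: 20380 probe sets named 1 gene, 691 several and 1606 none; 20351 matched the RefSeq table. The probe set with the highest mean over the arrays stood for each of 12393 genes.

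The 6 arrays were fitted together, with a mean for each of the 3 groups, in limma 3.58.1 (R 4.3.3). This left 3 residual degrees of freedom, to which the moderation added 2.58. Every adjusted p is from limma, over all genes of a comparison, with a threshold of 0.05; SE and 95% intervals are moderated. The fit was tested on simulated data. Groups and replicate numbers came from the labels, which name no batch.

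The members and lists were chosen with earlier results of these data known. All members are named; of each pathway list, the genes called in any comparison, or else the 2 of highest mean level; of each marker list, the 3 of highest mean level. Listed genes without a probe set that names 1 gene were not analysed here. Alternatives covered a dim-gene filter, centring, renormalisation, the mean of probe sets, a variance trend, fits of 2 groups, the replicate block, thresholds and leaving out each array; crossed stomach numbers were added after seeing the data.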

Additional observations from a re-analysis of the deposited data

How the results depend on the processing

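With the replicate number as a block, 0 members were called in Barx1 intestine against intestine and 1 in Barx1 intestine against stomach (Gas1), where 267 and 337 genes were called in all, against 493 and 644 without the block; it changed no member's call in stomach against intestine. The labels share only numbers: replicate deviations correlated at 0.203 between Barx1 intestine and intestine, -0.062 between Barx1 intestine and stomach and -0.216 between stomach and intestine. With the stomach numbers crossed, 383 genes were called in Barx1 intestine against stomach. Fits of 2 groups called 0 members and 50 genes in Barx1 intestine against intestine. The dim-gene filter, which left out Gli1, Gli3, Hhip and Foxf1, gave 845 genes in that comparison and 1242 in Barx1 intestine against stomach, and a variance trend gave 1037 and 1189. Both settings called 4 members in stomach against intestine, Smo being the addition (adjusted p = 0.0411 and 0.0489). In that comparison the filter kept 6 members and called 2405 of 6880 genes, and the variance trend called 2664 of 12393 genes. At an adjusted p under 0.10 the counts were 1316, 3310 and 1516 genes for Barx1 intestine against intestine, stomach against intestine and Barx1 intestine against stomach, with 5 members in stomach against intestine (Gli2, Smo, Foxf1, Foxf2, Gas1). Requiring a log2 difference of 0.5 gave 962 genes in stomach against intestine and 385 in Barx1 intestine against stomach. The mean of all probe sets turned Smo to 0.06 in Barx1 intestine minus stomach.

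Leaving out each array gave 0 to 0 members and 50 to 466 genes in Barx1 intestine against intestine, 1 to 3 members and 281 to 1692 genes in stomach against intestine, and 0 to 2 members and 0 to 727 genes in Barx1 intestine against stomach. The 0 genes by limma came without stomach replicate 2, where 1906 had an unadjusted p under 0.05. In Barx1 intestine minus intestine the Foxf2 difference ran from -0.77 to -0.61 over the fits that left out 1 array. Without a stomach array the comparison of Barx1 intestine with intestine is the fit of 2 groups. The same holds for stomach against intestine without a Barx1 intestine array, and for Barx1 intestine against stomach without an intestine array. Each such pair of fits is 1 fit counted 2 times. Uncalled members changed sign in 7 cases over the fits that left out 1 array. In Barx1 intestine minus intestine, Gas1 ran from -0.05 to 0.30 (-0.05 without Barx1 intestine replicate 2, -0.01 without intestine replicate 1), Hhip from -0.22 to 0.03 (without Barx1 intestine replicate 2) and Gli1 from -0.12 to 0.01 (without intestine replicate 2). In stomach minus intestine, Boc ran from -0.16 to 0.02 (without stomach replicate 2) and Gli1 from -0.01 (without intestine replicate 1) to 0.12. In Barx1 intestine minus stomach, Ptch1 ran from -0.01 (without Barx1 intestine replicate 2) to 0.18. The cause of these changes was not tested. Gli1, Gli3 and Hhip lay near background, which limits what a difference in them can show.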
